A study of Mus musculus with 17 samples.

Results

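The genes of the mitochondrial ribosome, those with a symbol that starts with Mrpl (large subunit) or Mrps (small subunit) and a number, were followed in the colonic mucosa of mice in experimental colitis. On whole-genome mouse arrays from Affymetrix 76 such genes were measured, 47 of the large and 29 of the small subunit by symbol, out of 18193 genes that had a probe set of their own. Each gene was read from 1 probe set, a group of short probes for 1 transcript, the one with the highest mean over all samples. The study compared PPAR γ flfl; CD4Cre+ mice (CD4cre), whose Cre recombinase, driven by the CD4 promoter, deletes PPAR γ from CD4+ and CD8+ T cells alike and leaves it in other cells, with Cre- mice (WT). Both were in the C57BL/6J background and received 2.5% dextran sodium sulfate (DSS), which damages the colonic epithelium, in drinking water. The 6 groups were CD4cre mice on days 0, 2 and 7 (3 samples each) and WT mice on days 0, 2 and 7 (3, 3 and 2 samples), and mice of day 0 had received no DSS. Whether each sample came from a single mouse or from a pool is not given in the sources used here, so p-values measure only the spread between these 17 samples, and age and sex are not given either.

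The mitoribosome translates the few mRNAs encoded by mitochondrial DNA, all of which specify subunits of the oxidative phosphorylation complexes. Its RNAs come from mitochondrial DNA, whereas its proteins are encoded in the nucleus, made on cytosolic ribosomes and imported. Part of these proteins descend from bacterial ribosomal proteins, and the rest were gained in mitochondria. Absorptive cells of the colon draw much of their energy from the oxidation of butyrate in mitochondria.

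The values are on the log2 scale after gcRMA, and the 76 probe sets were above a background level of 2.97 in every sample. Between 57.0% and 59.2% of all probe sets were above this level in each sample, and the number of arrays limits the precision. Markers of the epithelium (9 of 9 above background) had a mean log2 value of 12.47 to 13.14 in the 17 samples. Of 7 listed T cell markers 5 were measured, with a mean of 2.97 to 3.73 and so close to background. Pparg itself had values of 8.28 to 10.6 in CD4cre mice and 9.18 to 11.2 in WT mice, and it passed no comparison (smallest adjusted p = 0.47, limma). Transcripts of pancreatic enzymes were high in 3 samples (replicate 2 of CD4cre day 0, replicate 1 of CD4cre day 2, replicate 2 of WT day 2). CD4cre day 7 replicate 2 stood apart from the other samples, with Pearson correlations over all probe sets of 0.963 and 0.959 with the replicates of its group, which had 0.986 with each other.

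Both subunits had their lowest group mean in CD4cre mice on day 7, and 1 sample of that group lay far below the others. The mean log2 value over the 47 genes of the large subunit was 9.75 ± 0.063, 9.67 ± 0.12 and 9.40 ± 0.35 in CD4cre mice on days 0, 2 and 7 (SD, n = 3 each). In WT mice it was 9.84 ± 0.12, 9.63 ± 0.074 (SD, n = 3 each) and 9.75 ± 0.033 (SD, n = 2) on the same days. Over the 29 genes of the small subunit the mean was 9.37 ± 0.073, 9.34 ± 0.12 and 9.02 ± 0.35 in CD4cre mice on days 0, 2 and 7. It was 9.44 ± 0.13, 9.26 ± 0.12 and 9.37 ± 0.030 in WT mice on those days. In CD4cre mice on day 7 the means over all 76 genes were 9.40, 8.86 and 9.51 in replicates 1 to 3, against 9.68, 9.57 and 9.56 on day 0, without overlap. The subunits moved together: the mean of the large minus that of the small subunit stayed between 0.32 and 0.43 in all 17 samples. Because probes differ in their affinity, the size of that gap is no ratio of transcripts, and only its steadiness can be read.

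**Figure D1:**
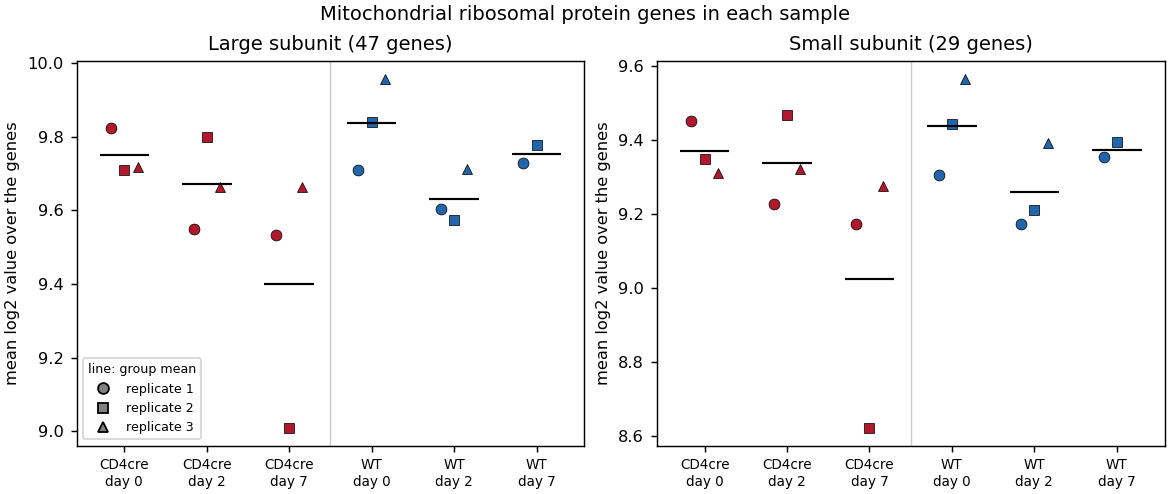
Mean log2 value over the genes of the large subunit (left) and of the small subunit (right) in each sample, with CD4cre mice in red and WT mice in blue on days 0, 2 and 7. Markers are samples and lines are group means, and CD4cre day 7 replicate 2 is the lowest sample in both panels.

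The comparison of day 7 with day 0 in CD4cre mice asks what DSS colitis did in the colon of mice without PPAR γ in T cells. Of the 76 genes 73 were lower on day 7 and 8 of them fell (adjusted p under 0.05 from limma, Benjamini-Hochberg over 45037 probe sets), while none rose. Of all probe sets 3.24% were called lower and 3.5% higher in this comparison, and of 12687 genes above background 6.14% were called lower. The median log2 difference over the 76 genes was -0.33, against -0.03 over all probe sets and -0.04 over the genes above background. It was -0.33 for the large subunit, of which 6 of 47 fell, and -0.31 for the small subunit, of which 2 of 29 fell. Values of day 7 and day 0 did not overlap for 26 genes, 25 lower and 1 higher, against 36.6% and 8.63% of all probe sets. Of the genes above background 19.8% were lower without overlap. An unadjusted p under 0.05 was found for 31 lower genes, against 13.5% of all probe sets, and for 0 higher genes, against 9.47%. In RNA of whole mucosa, fewer cells of a type and less RNA per cell cannot be told apart.

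The 2 genes of the small subunit that fell were both mitochondria-specific proteins. Mrps27, a pentatricopeptide repeat protein, had log2 values of 6.11, 5.20 and 5.72 in CD4cre mice on day 7, against 6.54, 6.73 and 6.61 on day 0. Every sample of day 7 was below every one of day 0, and the gene fell by 0.95 (SE 0.19, adjusted p = 0.0122, limma), 1.93-fold lower. Mrps23 had 8.83, 8.62 and 9.25 on day 7, against 9.82, 9.68 and 9.57 on day 0, again without overlap. It fell by 0.79 (SE 0.14, adjusted p = 0.00784, limma), and its other 2 probe sets were also called lower. In WT mice on day 7 Mrps27 was at 6.37 and 6.38 and Mrps23 at 9.27 and 9.54, all above the CD4cre samples of that day.

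Among the 6 genes of the large subunit that fell, 3 are counted as without a bacterial homologue. Mrpl49 had values of 8.14, 7.94 and 8.93 in CD4cre mice on day 7, against 9.25, 9.27 and 9.19 on day 0, and fell by 0.90 (SE 0.19, adjusted p = 0.0183, limma). Its second probe set was also called lower. Mrpl50 had 8.12, 7.82 and 8.29, against 8.84, 8.72 and 8.80, and fell by 0.71 (SE 0.15, adjusted p = 0.0147, limma), and its second probe set was called too. Mrpl48, a protein of the central protuberance on top of the subunit, had the smallest of the 8 changes. Its values were 9.54, 9.52 and 9.80 on day 7, against 10.07, 9.91 and 10.001 on day 0, and it fell by 0.37 (SE 0.077, adjusted p = 0.0154, limma). Of the 3 probe sets of Mrpl48 only the chosen one was called. None of these 3 genes had overlapping values on the 2 days.

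The other 3 descend from bacterial proteins. Mrpl16, the counterpart of L16, which in bacteria lies close to the tRNA sites, had values of 8.80, 8.39 and 9.14 on day 7, against 9.54, 9.40 and 9.43 on day 0. It fell by 0.68 (SE 0.15, adjusted p = 0.0222, limma). Mrpl19, whose bacterial counterpart L19 lies at the interface of the subunits, had 8.15, 7.93 and 8.34, against 8.80, 8.76 and 8.81, and fell by 0.65 (SE 0.13, adjusted p = 0.0157, limma). Mrpl1, the counterpart of the L1 protein of the mobile stalk where tRNA leaves, had 9.06, 8.55 and 8.34, against 9.29, 9.30 and 9.24. This gene fell by 0.63 (SE 0.16, adjusted p = 0.0412, limma), and of its 3 probe sets only the chosen one was called. For Mrpl1 the lowest sample was replicate 3, and for the other 7 genes it was replicate 2.

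**Figure D2:**
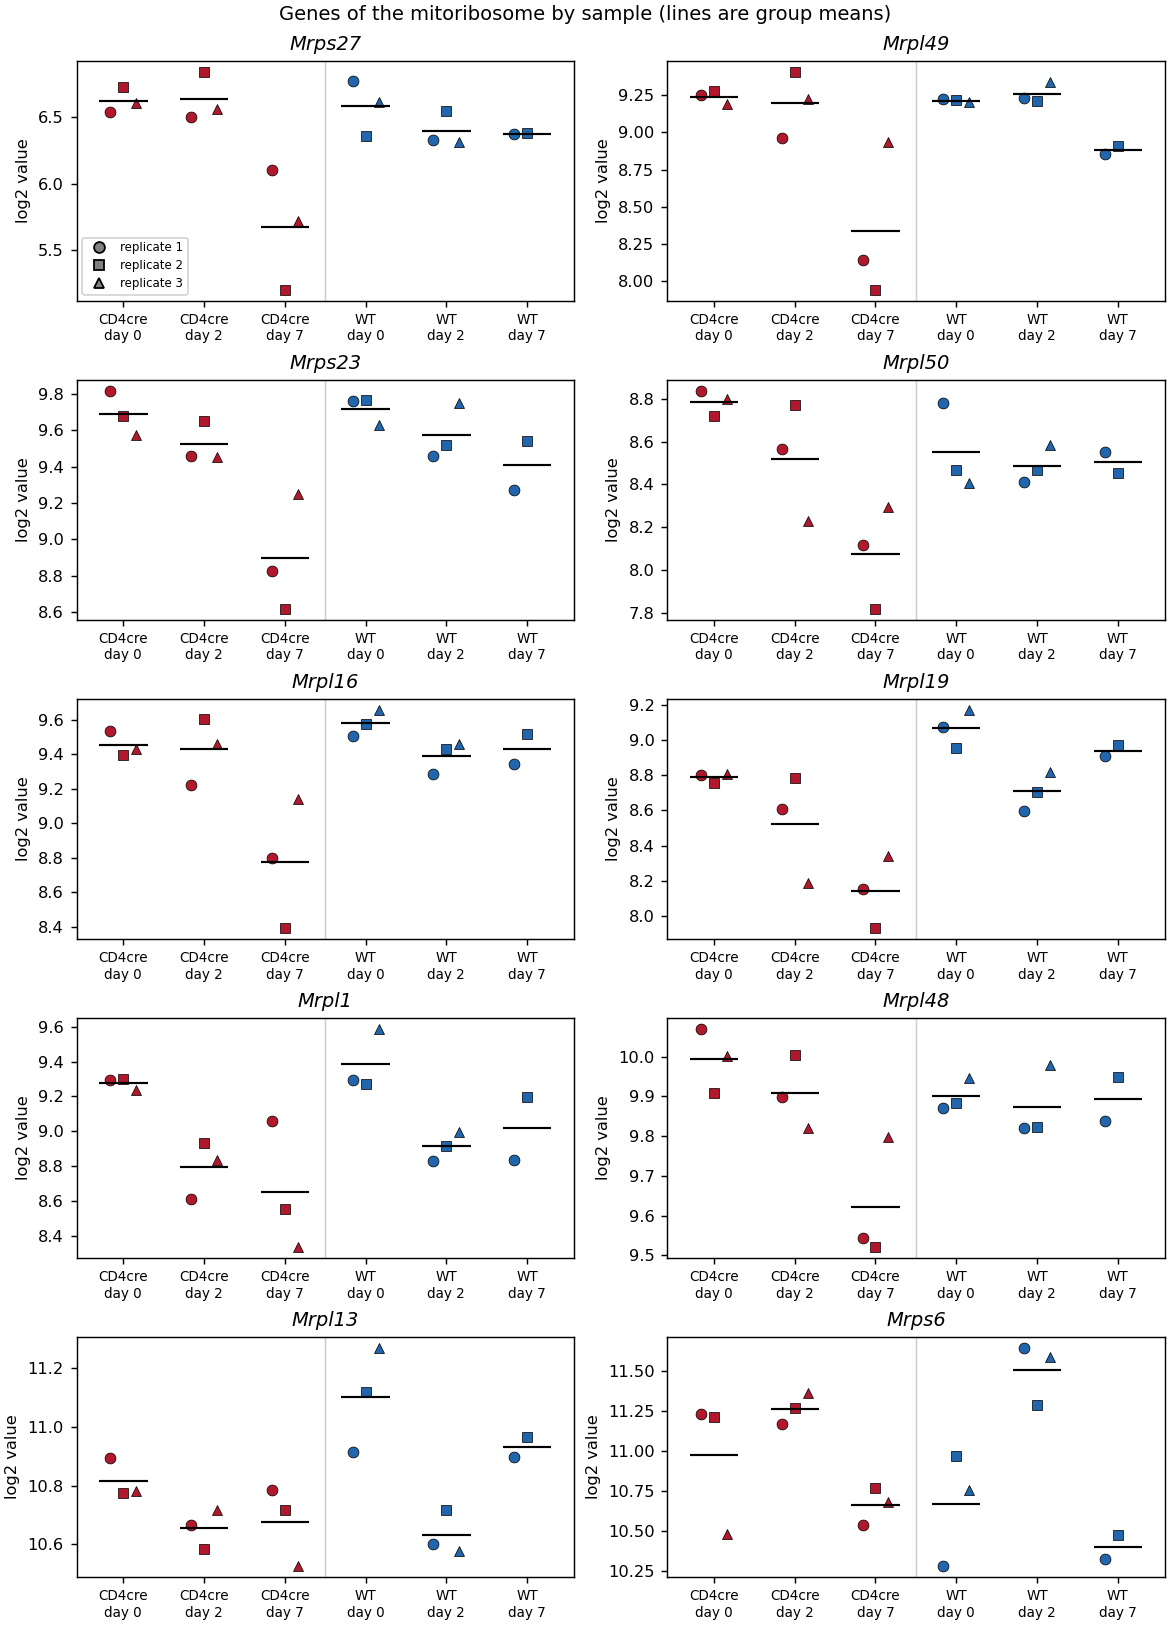
Log2 value of 10 genes in each sample, with CD4cre mice in red and WT mice in blue on days 0, 2 and 7 and lines at the group means. The first 8 panels show the genes called lower in CD4cre mice on day 7 against day 0, and the last 2 show Mrpl13 and Mrps6, which had the lowest p in WT mice on day 2.

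Over the 45 members listed with a bacterial homologue the median difference was -0.30 and 3 fell. Over the 30 members outside that list, with Mrps36 left out, it was -0.38 and 5 fell. The stalk that recruits translation factors held no called gene. Mrpl12, its factor-binding protein, had values of 10.93, 9.67 and 10.86 in CD4cre mice on day 7, against 10.89, 10.76 and 10.74 on day 0. Only replicate 2 was below day 0, and Mrpl10, which anchors Mrpl12, showed the same with 8.32, 7.09 and 8.48, against 8.24, 8.38 and 8.60. The log2 differences of the 3 stalk genes were -0.31 for Mrpl12, -0.44 for Mrpl10 and -0.24 for Mrpl11.

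Around the exit tunnel, where new proteins leave towards the inner membrane, none of 5 genes was called, and all 5 were lower by 0.18 to 0.47. Mrpl45, which holds the ribosome to the membrane, was at 8.60, 7.93 and 8.71 on day 7, against 8.80, 8.63 and 8.60 on day 0, with overlap. In the central protuberance, 1 of 5 genes fell, the Mrpl48 described above, and the others were lower by 0.33 (Mrpl38), 0.48 (Mrpl40), 0.49 (Mrpl18) and 0.63 (Mrpl46).

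By structure, 3 genes with an Mrps symbol lie outside the small subunit. Mrps30 and Mrps18a encode proteins of the large subunit, and Mrps36 a subunit of the oxoglutarate dehydrogenase complex. Their log2 differences in CD4cre mice on day 7 were -0.14, -0.39 and -0.47, and none was called. With members placed by structure the medians were -0.33 for 49 genes of the large and -0.31 for 26 genes of the small subunit.

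Of the 156 probe sets of the 76 genes, 17 were called lower in this comparison and none higher. Single probe sets of Mrpl3, Mrpl9, Mrpl35 and Mrpl44 were called although the chosen ones of these genes were not, and that of Mrpl35 was below background. Of 31 genes with several probe sets above background, 4 had probe sets with opposite signs, Mrpl3, Mrpl15, Mrpl52 and Mrps9. Opposite signs were found for 12 of these 31 genes in WT mice on day 2 against day 0. They were found for 9 in CD4cre against WT mice on day 7. In CD4cre mice the only genes with a higher mean on day 7 than on day 0 were Mrpl33 (0.12), Mrps18b (0.04) and Mrpl52 (0.04), and none was called. Mrpl33 had values of 10.38, 10.38 and 10.40 on day 7, against 10.33, 10.29 and 10.17 on day 0, and was the 1 gene higher without overlap.

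**Figure D3:**
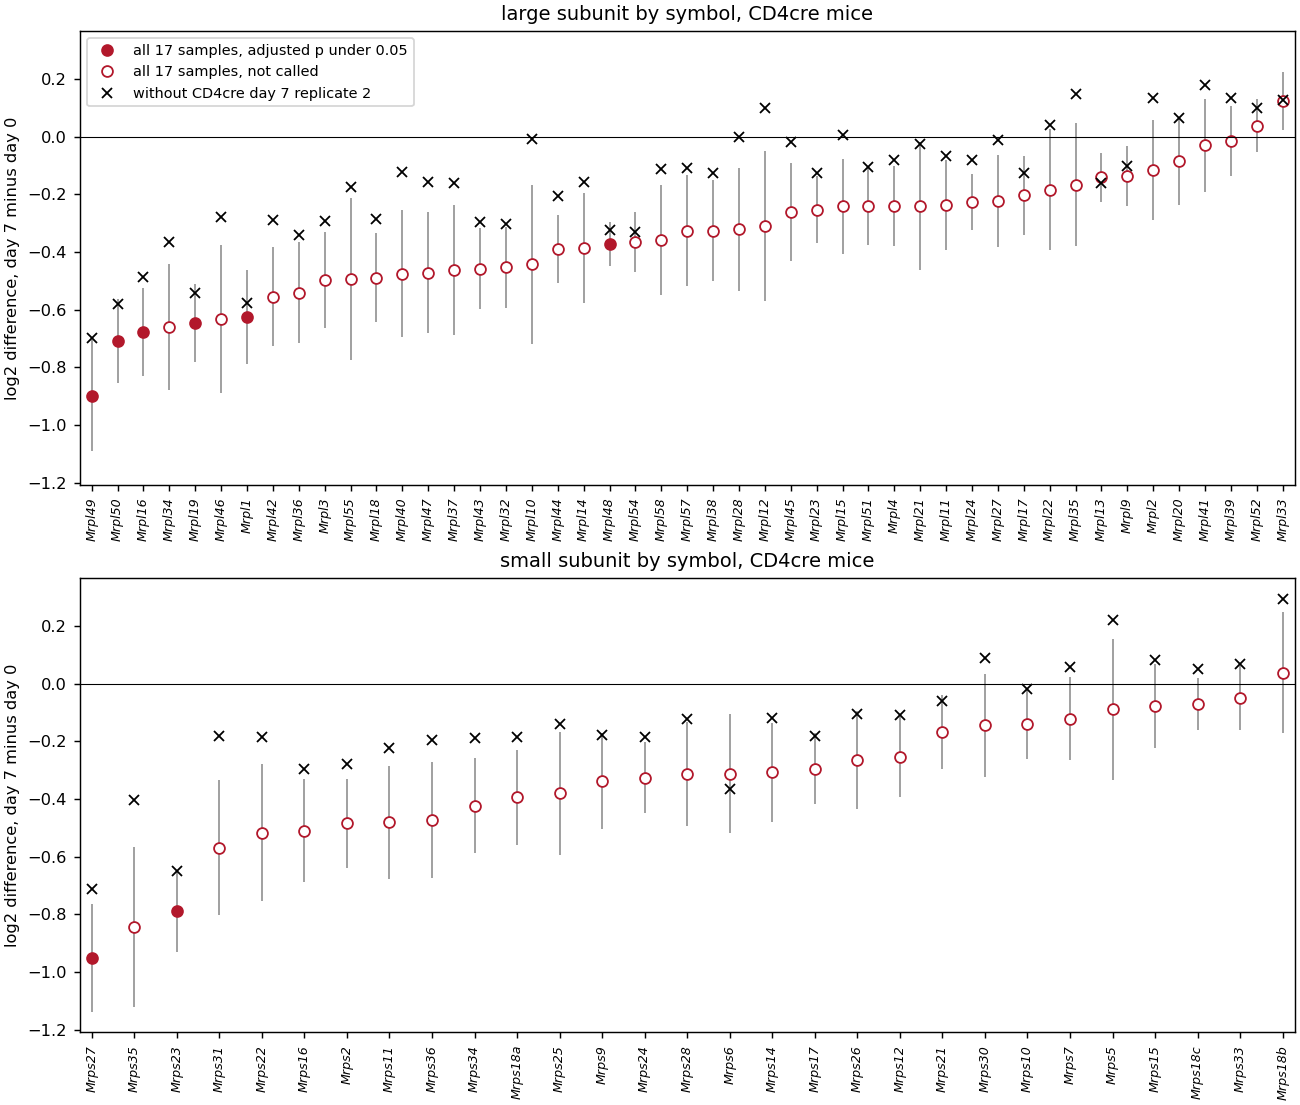
Log2 difference of day 7 minus day 0 in CD4cre mice for each gene of the large (top) and small (bottom) subunit, with bars of 1 SE. Filled circles are the 8 genes called lower with all 17 samples, open circles the other genes, and crosses the differences without CD4cre day 7 replicate 2, which lie above the circles for most genes.

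The samples of this group differed widely. Set against the day 0 mean of CD4cre mice, replicate 2 of day 7 had a median log2 difference of -0.73 over the 76 genes, replicate 1 one of -0.20 and replicate 3 one of -0.05. In replicate 2, 73 of 76 genes were below every day 0 sample, the exceptions being Mrpl33, Mrpl52 and Mrps6, against 48 genes in replicate 1 and 30 in replicate 3. Of all genes above background, 48.4% were below every day 0 sample in replicate 2, 44.2% in replicate 1 and 34.7% in replicate 3. For 68 of the 76 genes replicate 2 was the lowest of all 17 samples. The median SD of the members within the group was 0.371, against 0.0885 in CD4cre mice on day 0. That of the genes above background was 0.266, against 0.138. For each gene limma used 1 estimate of the spread shared by the 6 groups. The SE and p-values therefore do not fully carry the wider spread of this group.

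Without replicate 2, 59 of the 76 genes were lower, with a median difference of -0.13, and 6 still fell (limma), against 2.22% of all probe sets called lower. They were Mrps27 (-0.71), Mrpl49 (-0.70), Mrps23 (-0.65), Mrpl50 (-0.58), Mrpl16 (-0.49) and Mrpl48 (-0.32), while Mrpl19 (-0.54) and Mrpl1 (-0.58) were no longer called (adjusted p = 0.0501 and 0.112). Without replicate 3 there were 24 calls, against 11.6% of all probe sets called in that fit, without day 0 replicate 1 there were 2 and without day 0 replicate 2 there were 3. Without the 3 samples with pancreatic transcripts none of the 76 genes was called, with a median difference of -0.35, and none was called when the 2 groups were fitted alone.

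**Figure D4:**
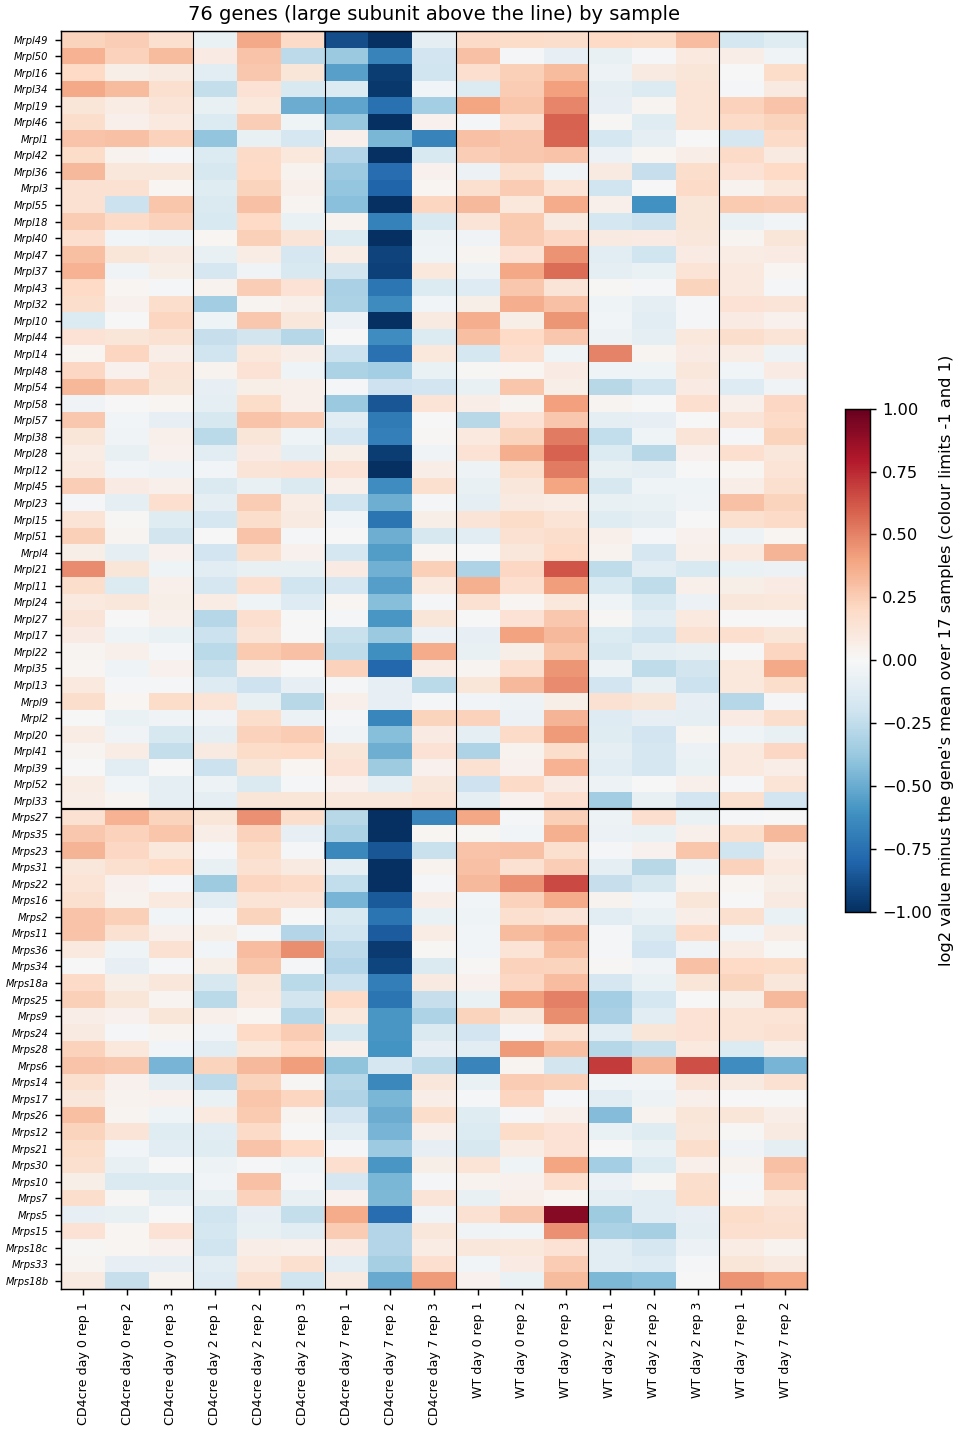
Log2 value of each of the 76 genes in each of the 17 samples minus the mean of the gene over all samples, with blue lower and red higher and colours limited at -1 and 1. Rows run from the most negative difference in CD4cre mice on day 7 downwards within the large subunit (above the line) and the small subunit, and the column of CD4cre day 7 replicate 2 is blue for nearly all genes.

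Markers of monocytes and macrophages, neutrophils, fibroblasts, proliferating cells and epithelium were furthest from day 0 in replicate 2. Those of goblet cells, smooth muscle and T cells were furthest in replicate 1. Goblet cell means were 14.16, 15.11 and 14.67 in replicates 1 to 3, against 14.47 to 15.27 on day 0. Smooth muscle means were 12.41, 13.18 and 12.75, against 12.74 to 13.59, and T cell means 3.73, 3.14 and 3.45, against 3.11 to 3.33. In replicates 1 and 3 the means of epithelial and proliferating cell markers were not below their day 0 range. All 8 markers of monocytes and macrophages rose on day 7 in CD4cre mice, with a mean log2 value of 8.62, 9.83 and 8.46 in replicates 1 to 3, against 6.58 to 6.86 on day 0. Neutrophil markers (2 of 7 measured rose) had means of 5.55, 7.18 and 5.15, against 3.07 to 3.15. Fibroblast markers (5 of 7 rose) had means of 11.62, 12.62 and 11.66, against 10.71 to 10.76. Beside these rises, 3.5% of all probe sets were called higher. Markers of proliferating cells (none of 7 called) had means of 8.57, 7.17 and 8.23, against 7.76 to 8.71. Epithelial markers (none of 9 called) had means of 13.01, 12.47 and 12.92, against 12.78 to 12.94. A score of Hox genes, which differ in expression along the gut, was 1.11 in replicate 2, while replicates 1 and 3 had -0.75 and -0.86. The part of these values in the result was not tested, except that with the Hox score as a covariate 16 of the 76 genes were called, against 10.5% of all probe sets called in that fit and 6.74% without the covariate.

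Other lists of mitochondrial translation genes held calls in the same direction. Shares of 3.24% of all probe sets and 6.14% of genes above background were called lower in CD4cre mice on day 7 against day 0. These shares stand beside the counts of each list below. Of 4 measured mitoribosome proteins with other symbols, Dap3, Ptcd3, Chchd1 and Gadd45gip1, all were lower in CD4cre mice on day 7 and none was called. Of 10 translation factors 2 fell and none rose, with a median log2 difference of -0.45. Against the day 0 mean the median was -0.20, -0.84 and -0.31 in replicates 1 to 3, lowest in replicate 2. Guf1, the mitochondrial counterpart of bacterial LepA, had values of 5.56, 5.24 and 5.11 on day 7, against 5.99, 5.96 and 6.72 on day 0, and fell by 0.92 (SE 0.22, adjusted p = 0.029, limma). Mrrf, which recycles the ribosome after termination, fell by 0.33 (SE 0.089, adjusted p = 0.0476, limma).

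Of 16 mitochondrial aminoacyl tRNA synthetases, which load tRNAs with amino acids, 3 fell and none rose. They were Nars2 (-1.31), Mars2 (-0.62) and Fars2 (-0.61), and the list had a median of -0.36. By sample it was -0.18, -0.69 and -0.03 in replicates 1 to 3, with replicate 2 far below the others. Of 18 genes of mitoribosome assembly and rRNA modification 3 fell. Among them was Mterf4 (-0.67, SE 0.078, adjusted p = 0.000939, limma), which guides methylation of mitochondrial rRNA. By sample the median of this list was -0.17, -0.44 and -0.04 in replicates 1 to 3, lowest in replicate 2. Of 11 genes of mitochondrial DNA transcription and maintenance 3 fell, the mitochondrial RNA polymerase Polrmt (-0.63), its elongation factor Tefm (-0.72) and its initiation factor Tfb2m (-0.58).

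Ppargc1a, a coactivator that drives mitochondrial biogenesis, was the 1 of 9 listed regulators that was called. Its values were 7.58, 7.42 and 8.92 in CD4cre mice on day 7, against 9.34, 9.54 and 9.96 on day 0, without overlap, and it fell by 1.65 (SE 0.44, adjusted p = 0.0441, limma). In WT mice it was at 9.18 and 8.81 on day 7, against 9.31, 8.37 and 8.69 on day 0. On day 2 it was at 9.99, 9.88 and 9.53 in WT mice, above each day 0 sample (difference 1.01, SE 0.44, adjusted p = 0.475, limma). Most members were lower in those samples, and a relation between Ppargc1a and the members was not tested.

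Of 49 cytosolic ribosomal proteins 11 fell and 1 rose in CD4cre mice on day 7, with a median log2 difference of -0.17. Among 81 nuclear-encoded subunits of oxidative phosphorylation 1 fell, with a median of -0.24. The shares of genes above background were 6.14% called lower and 6.07% called higher. In replicate 2 alone the medians against the day 0 mean were -0.73 for the 76 members, -0.61 for oxidative phosphorylation and -0.28 for cytosolic ribosomal proteins, and that over all genes above background was -0.08. In WT mice on day 7 the cytosolic ribosomal proteins had a median of 0.12 and the 76 members one of -0.07.

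**Figure D5:**
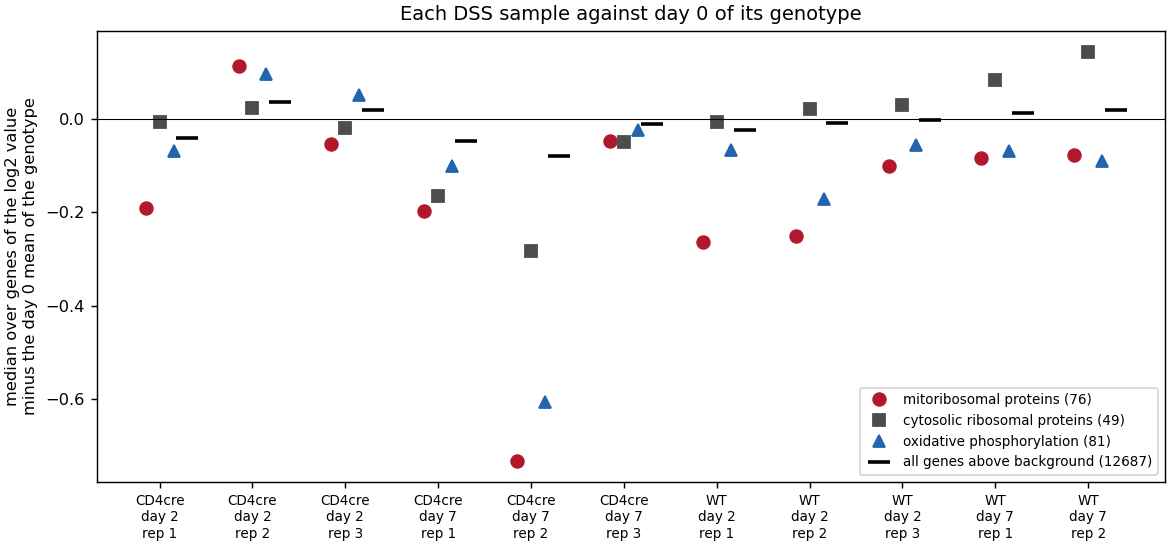
Median over genes of the log2 value in each DSS sample minus the day 0 mean of its genotype, for 76 mitoribosomal proteins, 49 cytosolic ribosomal proteins, 81 oxidative phosphorylation subunits and 12687 genes above background. CD4cre day 7 replicate 2 holds the lowest point of each of these 4 sets.

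In CD4cre mice on day 2 no member was called against day 0 (limma), against 0.0178% of all probe sets. There were 50 members lower and 26 higher with a median log2 difference of -0.05, and 2 had an unadjusted p under 0.05, against 6.62% of all probe sets. Those were Mrpl44, which carries an RNase III fold (-0.37, SE 0.12, adjusted p = 0.48), and Mrpl1 (-0.48, SE 0.16, adjusted p = 0.524). Mrpl1 had values of 8.61, 8.93 and 8.84 on day 2, against 9.29, 9.30 and 9.24 on day 0, without overlap. Replicate 1 of day 2, a sample with pancreatic transcripts, was the lowest of the 3 over the members (median -0.19 against the day 0 mean), and replicates 2 and 3 had 0.11 and -0.05. Without replicate 1 the median difference turned to 0.03.

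WT mice on day 2 showed a small shift in the same direction. Against day 0, 70 of 76 members were lower, with a median log2 difference of -0.21 (-0.23 for the large and -0.19 for the small subunit), against -0.02 over all probe sets and -0.01 over the genes above background. In 1 member the difference passed limma, against 0.198% of all probe sets called lower. Mrpl13, the counterpart of an early assembly protein of the bacterial large subunit, had values of 10.60, 10.72 and 10.58 on day 2, against 10.92, 11.12 and 11.27 on day 0. The groups did not overlap, and Mrpl13 fell by 0.47 (SE 0.086, adjusted p = 0.0451). The probe sets of Mrpl13 above background did not all have this sign, and no other probe set of the members was called. Values did not overlap for 21 lower and 1 higher members, against 10.2% and 6.59% of all probe sets. An unadjusted p under 0.05 was found for 12 lower, against 4.94% of all probe sets, and 1 higher, against 4.65%.

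The gene that was higher was Mrps6, a small-subunit protein of the platform. It had 11.64, 11.28 and 11.59 in WT mice on day 2, against 10.28, 10.97 and 10.76 on day 0, without overlap, a log2 difference of 0.83 (SE 0.20, adjusted p = 0.108, limma). Slc5a3, a myo-inositol transporter that lies in the locus of Mrps6 on chromosome 16, had 11.10, 10.32 and 10.50 on day 2, against 8.78, 9.88 and 8.97 on day 0 (difference 1.43, adjusted p = 0.22). On day 7 Mrps6 was at 10.32 and 10.48 in WT mice, within the range of day 0.

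The call of Mrpl13 ended without any 1 of 12 samples, WT day 0 replicates 2 and 3 and each WT sample of day 2 among them, and its difference without one of those 5 samples was -0.39 to -0.51. Replicate 3 of WT day 0 held the highest value of 36 of the 76 members, and without it the median difference was -0.14. With the Hox score as a covariate the median turned to 0.066 and no member was called, against 0.0111% of all probe sets. The score was 1.78 to 2.28 in WT mice on day 2, against -0.65 to 0.75 on day 0. Markers of proliferating cells (2 of 7 called, both lower) had means of 7.34, 7.54 and 6.79 in WT mice on day 2, against 8.99, 9.30 and 9.17 on day 0. B cell markers (2 of 4 called, both higher) had means of 4.47, 4.48 and 4.34, against 2.93, 3.24 and 2.96. Neither set of means overlapped between the days. Only 2 of the 4 B cell markers were above background. The shares of all probe sets called in this comparison were 0.251% higher and 0.198% lower. The part of these markers in the result was not tested.

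In WT mice on day 7 no member was called (limma) and none had an unadjusted p under 0.05, against 0.0866% and 9.57% of all probe sets. Of the 76 genes 55 were lower, with a median log2 difference of -0.07. The lowest p values belonged to Mrpl1 (-0.37), Mrpl13 (-0.17), Mrpl23 (0.24), Mrps23 (-0.31) and Mrps22 (-0.44), with adjusted p = 0.488 for each. The medians of both samples against the day 0 mean were -0.08.

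Between the genotypes, CD4cre and WT mice were set against each other on each day. This comparison of Cre+ with Cre- mice holds the deletion together with any other difference between them. On day 7, 72 of the 76 members were lower in CD4cre mice, with a median log2 difference of -0.38, and 1 was called, against 0.806% of all probe sets called lower. Mrpl19 had 8.15, 7.93 and 8.34 in CD4cre mice, against 8.91 and 8.97 in WT mice, without overlap, and was lower by a log2 difference of -0.80 (SE 0.15, adjusted p = 0.0288, limma). Next in p were Mrpl16 (-0.65), Mrpl23 (-0.50), Mrps34 (-0.64) and Mrps27 (-0.70), which did not pass (adjusted p = 0.0852 to 0.123). Members without overlap were 34 lower and 1 higher, against 19.6% and 10.3% of all probe sets, and 28 lower members had an unadjusted p under 0.05, against 8.65%. The call of Mrpl19 ended without CD4cre replicate 1 or 2 or without either WT sample, and without CD4cre replicate 2 no member was called and the median was -0.16. Without CD4cre replicate 3 there were 17 calls, against 6.84% of all probe sets. Monocyte and macrophage markers (1 of 8 called, higher) had means of 8.62, 9.83 and 8.46 in CD4cre mice, against 7.45 and 7.72 in WT mice. Neutrophil markers (2 of 7 called, both higher) had means of 5.55, 7.18 and 5.15, against 4.04 and 3.85, and fibroblast markers (none of 7 called) means of 11.62, 12.62 and 11.66, against 11.13 and 10.99. All 3 sets of means were higher in CD4cre mice without overlap, and 0.706% of all probe sets were called higher. The part of these markers in the result was not tested.

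Beyond the members, 4 genes of the mitochondrial lists (4 to 18 genes each) were called lower in CD4cre against WT mice on day 7. The shares called lower in this comparison were 0.806% of all probe sets and 1.54% of genes above background. Gadd45gip1, a protein of the large subunit, had 7.16, 6.57 and 7.05 in CD4cre mice, against 7.60 and 7.94 in WT mice, a log2 difference of -0.84 (SE 0.18, adjusted p = 0.0456, limma). Oxa1l, which inserts new proteins into the inner membrane, had 7.41, 6.81 and 7.21, against 7.92 and 7.93 (difference -0.78, SE 0.16, adjusted p = 0.0346). Polrmt and Mterf4 had differences of -0.53 and -0.43 (adjusted p = 0.0465 and 0.0386, limma). CD4cre replicate 2 was the lowest CD4cre sample of day 7 for Gadd45gip1, Oxa1l and Mterf4, but not for Polrmt. Whether these calls hold without that sample was not tested.

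On day 0, before DSS, no member was called in CD4cre against WT mice (limma), against 0.00666% of all probe sets. There were 56 members lower, with a median log2 difference of -0.08, and Mrpl13 alone had an unadjusted p under 0.05 (-0.28, adjusted p = 0.86), against 4.52% of all probe sets. Mrpl13 had 10.89, 10.77 and 10.78 in CD4cre mice, against 10.92, 11.12 and 11.27 in WT mice. On day 2 no member was called either (0.0422% of all probe sets), 57 were higher in CD4cre mice with a median of 0.05, and Mrpl33 alone had an unadjusted p under 0.05 (0.26, adjusted p = 0.596), against 7.33% of all probe sets.

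Whether DSS acted differently in CD4cre and WT mice was tested as an interaction. On day 7 the effect was lower in CD4cre than in WT mice for 69 of 76 members, with a median of -0.26, and no member was called (limma), against 0.0955% of all probe sets called lower. An unadjusted p under 0.05 was found for 10 members with a lower effect, against 5.99% of all probe sets, led by Mrpl48 (-0.36, SE 0.12, adjusted p = 0.263) and Mrpl50 (-0.66, SE 0.22, adjusted p = 0.292). Without CD4cre day 7 replicate 2 the median was -0.068. On day 2 the effect was higher in CD4cre mice for 59 members, with a median of 0.14, none was called (0.00222% of all probe sets) and 1 had an unadjusted p under 0.05, against 4.28% of all probe sets. That median turned to -0.061 with the Hox score as a covariate.

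Promoters of many members shared short motifs for factors that regulate nuclear genes of mitochondria. RefSeq windows of 300 bases (GRCm38.p6), from 250 bases before each start to 50 after it, were matched for 67 of the 76 genes. Searched on both strands, GCGCATGC, the core of sites for NRF1, was in 11.9% of these windows and in 3.61% of the windows of 17492 protein-coding genes. CCGGAAG, the core of sites for ETS factors such as GABP, was in 35.8% and 11.9%, and AAGATGGC, a site of YY1, in 17.9% and 3.22%. At least 1 of the 3 was in 53.7% of the members and in 17.3% of all, and matches of different motifs overlapped in 0 members, while matches of the NRF1 core on both strands can overlap each other. Of the 7 genes called in CD4cre mice on day 7 with a window, 3 held a match (42.9%), 2 of them the ETS core, 2 the YY1 site and 0 the NRF1 core. A match is a description of letters and not of binding.

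For 4 genes the 250 bases before the start are shown to set called genes beside others, in lower case with matches in capitals. The uncalled examples, Mrpl32 and Mrpl9, are among only 8 of 67 members with the NRF1 core and do not stand for the uncalled members. Mrps27 (chr13:99344536-99344785, plus strand) was the called gene with the largest change and has the ETS core, read on the other strand, 48 bases before the start. Mrps23 (chr11:88204138-88204387, plus strand), with the lowest adjusted p, has no match in this stretch. Mrpl32 (chr13:14613038-14613287, minus strand), counterpart of bacterial L32, was not called in CD4cre mice on day 7 (-0.45, adjusted p = 0.0774, limma). It holds a YY1 site 242 bases before the start and NRF1 cores that begin 87, 85, 66 and 22 bases before it. Mrpl9 (chr3:94443086-94443335, plus strand), counterpart of L9, was not called by its chosen probe set (-0.14, adjusted p = 0.4). Another probe set of Mrpl9 was called lower (-0.85, adjusted p = 0.0387, limma). Mrpl9 holds NRF1 cores that begin 28 and 26 bases before the start.
Mrps27: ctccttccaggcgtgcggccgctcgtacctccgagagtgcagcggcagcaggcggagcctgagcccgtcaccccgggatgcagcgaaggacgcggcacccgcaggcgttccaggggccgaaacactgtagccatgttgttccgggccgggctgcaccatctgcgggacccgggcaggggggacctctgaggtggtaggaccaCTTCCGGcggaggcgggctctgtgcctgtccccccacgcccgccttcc
Mrps23: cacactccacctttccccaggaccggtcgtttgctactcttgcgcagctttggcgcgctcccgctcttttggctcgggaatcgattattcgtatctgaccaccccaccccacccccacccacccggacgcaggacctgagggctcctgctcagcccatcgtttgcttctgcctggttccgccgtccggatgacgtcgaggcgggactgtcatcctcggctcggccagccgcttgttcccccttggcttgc
Mrpl32: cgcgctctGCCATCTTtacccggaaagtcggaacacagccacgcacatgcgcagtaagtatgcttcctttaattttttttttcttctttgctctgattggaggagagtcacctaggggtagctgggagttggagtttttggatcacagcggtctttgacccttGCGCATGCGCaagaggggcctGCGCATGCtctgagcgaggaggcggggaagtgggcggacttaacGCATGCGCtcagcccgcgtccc
Mrpl9: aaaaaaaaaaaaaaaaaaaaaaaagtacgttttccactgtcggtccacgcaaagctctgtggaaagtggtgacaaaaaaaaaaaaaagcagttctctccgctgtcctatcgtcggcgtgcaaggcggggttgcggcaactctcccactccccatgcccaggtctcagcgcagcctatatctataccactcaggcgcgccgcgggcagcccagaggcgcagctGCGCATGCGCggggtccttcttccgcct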

How the data were processed

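Total RNA of colonic mucosa from 17 samples in 6 groups was hybridized to arrays. Array files were loaded by the authors with affy and run through gcRMA under R 2.9.0 (background adjustment, normalization across arrays, 1 summary value a probe set), and the log2 values were deposited. The precision is limited by the number of arrays.

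The table holds 45101 probe sets, of which 64 controls were left out and 45037 tested without a filter. Genes were named from the platform table (34945 probe sets with 1 gene, 932 with several, 9160 with none). A gene was read from its probe set with the highest mean. The background level was the 95th percentile of the means of 148 probe sets whose genes are restricted to tissues outside the colon. A model of 6 group means was fitted to all samples with limma 3.58.1 (R 4.3.3; 11 residual and 0.888 prior degrees of freedom). The 9 comparisons used two-sided tests with Benjamini-Hochberg adjustment within each and a call at an adjusted p under 0.05. Several share the same day 0 or day 7 samples.

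On simulated data for CD4cre mice on day 7 against day 0, 200 of 45037 probe sets were changed in each of 5 runs. The fit recovered 14.2% of log2 changes of 0.5 and 50.4% of changes of 1, with 0 wrong signs and 4.2 false calls per run. The simulated noise was independent between probe sets, with the same SD in all groups. In the data 3036 probe sets were called and the SD differed between groups, so these rates do not carry over. Named were, for each comparison, called members by size of difference, the 5 lowest p values where fewer than 5 were called, members of 3 structural groups, Mrps symbols of proteins outside the small subunit, and called genes of the lists. Other genes, Slc5a3 among them, and the printed promoters were chosen after their values were seen. The members, lists and alternatives were chosen with earlier results of these data known. Promoter windows came from RefSeq tables of GRCm38.p6. Alternatives were other fits, filters, centring, probe set means, weights, covariates, a replicate block and leaving out samples. Figures were drawn with matplotlib 3.10.9 in Python 3.11.15.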

Additional observations from a re-analysis of the deposited data

How the results depend on the processing

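The median log2 difference of CD4cre mice on day 7 against day 0 was negative under every alternative run. Its count of called members was 8, with 6.74% of all probe sets called in either direction. The count was 0 in a fit of only the groups compared (0.0622% of all probe sets) and 0 without the 3 samples with pancreatic transcripts (1.91%). It was 22 with median centring of each array (40.0%) and 16 with the Hox score as a covariate (10.5%). With array weights, whose estimate stopped before it converged, the count was 14 (13.8%). Fits that each lacked 1 sample gave 2 to 24 calls and medians of -0.45 to -0.13. Only Mrps23 kept its call in all 17 of these fits, while Mrps27 lost it without CD4cre day 0 replicate 2, Mrpl50 without CD4cre day 0 replicate 1, Mrpl48 in 2 fits, Mrpl19 and Mrpl49 in 3 each, Mrpl16 in 4 and Mrpl1 in 12.

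The count for WT mice on day 2 was 1, with 0.449% of all probe sets called. It was 0 in a fit of only the groups compared (0.129%), with trend and robust variances (0.451%) and with the mean of all probe sets of a gene. It was also 0 without the 3 samples with pancreatic transcripts (0.153%), with the Hox score (0.0111%) and with the replicate block (0.298%). With array weights it was 16 (13 lower and 3 higher, 18.4% of all probe sets called). Without 1 sample it was 0 to 3 (3 without CD4cre day 7 replicate 2, 1.5%). The median was -0.011 with array weights and 0.066 with the Hox score. The count for CD4cre against WT mice on day 7 (1) was 0 in a fit of only the groups compared, without the 3 samples, with the Hox score and with the replicate block, 2 with array weights (2.95% of all probe sets called) and 2 with the mean of probe sets. Without 1 sample it was 0 to 17, with medians of -0.51 to -0.16.

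With array weights the counts were 3 higher for WT mice on day 7 (5.54% of all probe sets called), 7 lower and 11 higher (18 in all) for CD4cre against WT mice on day 0 (18.7%) and 2 lower for the difference of the DSS effects of day 7 (3.83%). Without 1 sample the last was 0 to 2, with medians of -0.40 to -0.068, and the count for CD4cre mice on day 2 was 0 to 1. The median difference of the DSS effects of day 2 was -0.032 with array weights and -0.061 with the Hox score. Mrpl13 in WT mice on day 7 turned to 0.0026 with array weights. The causes were not tested. The replicate numbers do not pair the samples: of 40 correlations of same-numbered deviations 16 were over 0.1, with a range of -0.44 to 0.50. The replicate block left 7 calls in CD4cre mice on day 7, with 5.88% of all probe sets called.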
